A study of Mus musculus with 6 samples.

Results

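The 7 genes for insulin-like growth factor binding proteins, Igfbp1 to Igfbp7, and the 2 genes for insulin-like growth factor (IGF) receptors, Igf1r and Igf2r, were read in RNA of hepatocytes isolated from mouse liver. They were taken by symbol, and all 9 were present among the 32061 genes of the count table. Senescent hepatocytes (3 libraries) came from AhCre+Mdm2fl/fl mice and healthy ones (3 libraries) from AhCre- mice, whose Mdm2 alleles the labels do not state. Mice of both groups were 10 to 12 weeks old and were injected with β-naphthoflavone in corn oil at 20 mg/kg for 48 h, so the controls had received the inducing agent too. AhCre is a Cre recombinase under a promoter that answers to such ligands of the aryl hydrocarbon receptor, and Mdm2 encodes the ubiquitin ligase that restrains p53. Carrying the transgene and losing Mdm2 cannot be told apart in this design. The labels do not say whether a group's libraries came from separate animals, so the tests set the difference against the spread of these libraries, whatever its source.

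IGF1 and IGF2 are peptide hormones related to insulin, and the liver is the main source of circulating IGF1. In the blood they travel bound to the IGF binding proteins, which lengthen their life and keep them from the receptors until they are released, in some cases by proteases. IGF1R is a tyrosine kinase that signals growth and survival, whereas IGF2R has no kinase: it takes IGF2 to the lysosome and, as the cation-independent mannose 6-phosphate receptor, carries newly made lysosomal enzymes there. IGFBP1 is made by hepatocytes and repressed by insulin, and several IGF binding proteins are known among the factors that senescent cells release.

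Total counts were 29992707 to 32210591 per senescent and 28799392 to 33267299 per healthy library. Levels are in CPM, counts scaled to a common library size after TMM correction, and are averaged with the SD of n = 3 libraries. A log2 fold change is senescent over healthy and stands with its SE. A gene was called when its Benjamini-Hochberg adjusted p in edgeR's quasi-likelihood test over 12949 genes was under 0.05. Of those genes 41.1% were called, 20.4% as higher and 20.7% as lower, and the CPM of the 2 groups did not overlap for 53.9%. The balance of the calls rests on the scaling, since total library size in place of TMM gave 4861 higher and 1285 lower genes against 2644 and 2680, and put the median log2 fold change at 0.33 in place of 0.01. Changes are therefore relative to the bulk of genes under TMM. Mdm2, the targeted gene, had 464, 463 and 501 CPM in senescent and 19.0, 22.7 and 22.0 CPM in healthy libraries. It is a target of p53, and its count over the whole gene does not check the deleted part. All 10 hepatocyte markers were read, summing to 69839 to 82662 CPM in senescent and 120334 to 136439 CPM in healthy libraries. In the same libraries 12 macrophage markers summed to 236 to 463 CPM in senescent and 92.8 to 250.1 CPM in healthy hepatocytes, and 14 stellate cell markers to 41.4 to 59.2 and 14.4 to 26.3 CPM. In such bulk RNA, fewer cells of a type and less RNA per cell cannot be told apart.

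Of the 9 genes 8 had enough counts to be tested. Igf2r rose, Igfbp2, Igfbp4 and Igfbp5 fell, and Igfbp1, Igfbp3, Igfbp7 and Igf1r did not pass, while Igfbp6 was too sparse for the test. The 4 calls among 8 tested genes stand beside the 41.1% of all genes, and 5 of the 9 genes had groups that did not overlap, beside 53.9% of all genes. The count of calls is thus near the background and is no result about these genes. With total library size the genes called higher were 3 in place of 1, by the addition of Igfbp1 and Igf1r.

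**Figure D1:**
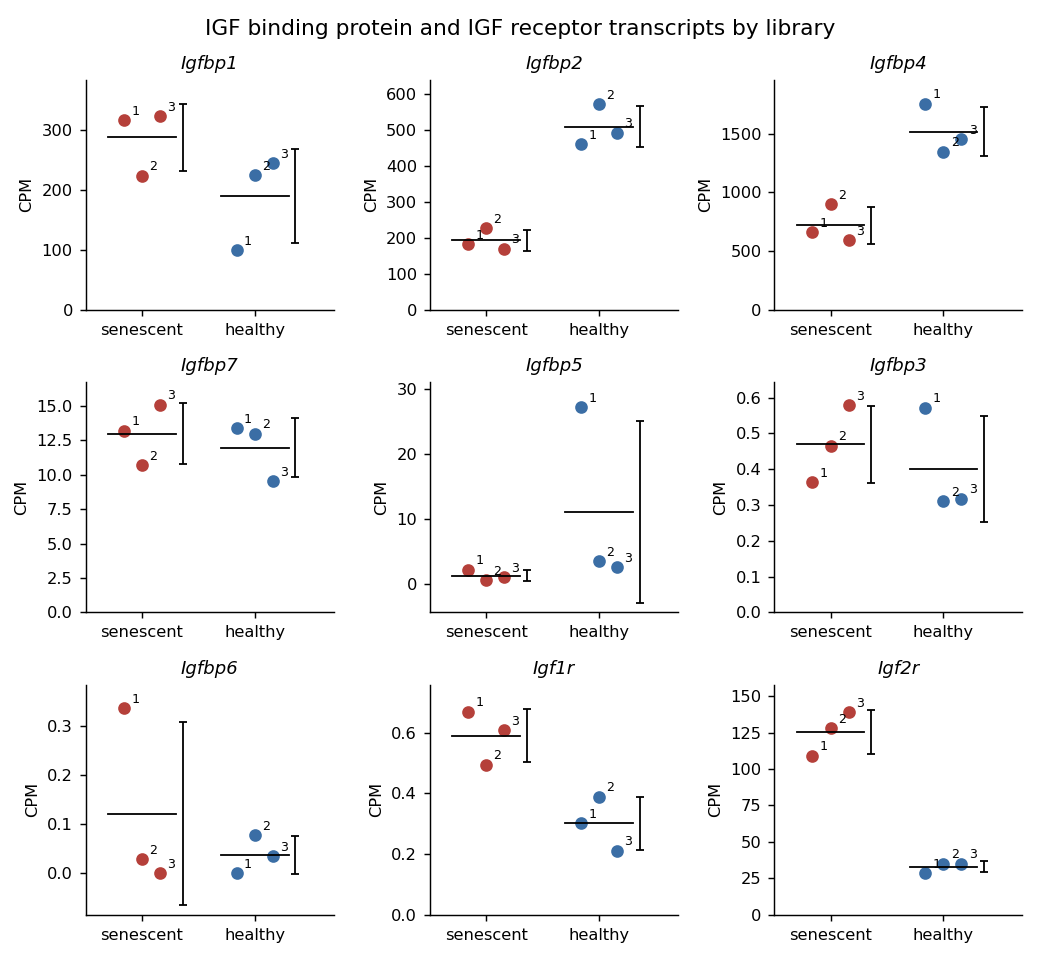
CPM of each gene (vertical axes, each with its own scale) in the senescent (left, red) and healthy (right, blue) libraries, numbered by replicate, with the group mean as a line and the SD as a bar. Igf2r lay at 109 to 139 CPM in senescent and 28.5 to 35.2 CPM in healthy libraries, and for Igfbp5 a single healthy library stood at 27.2 CPM.

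**Figure D2:**
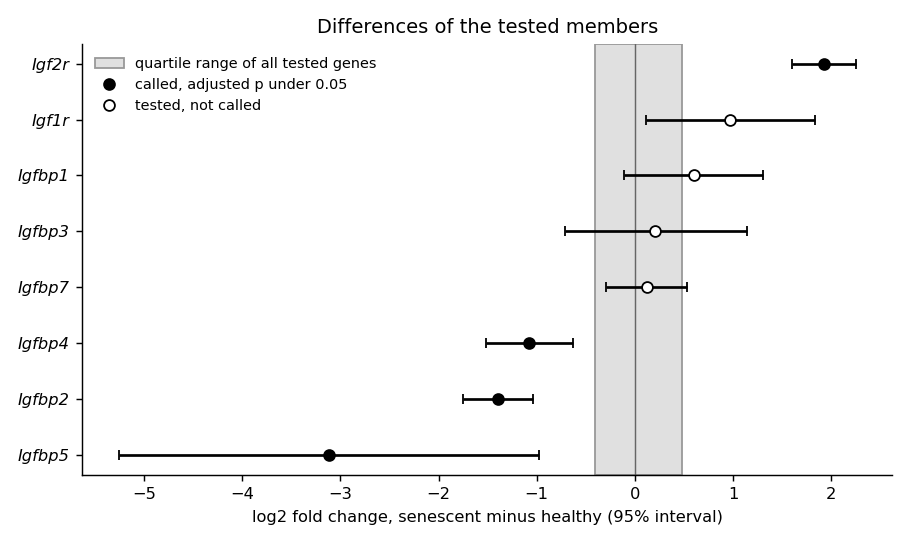
Log2 fold changes (senescent minus healthy) of the 8 tested genes with 95% intervals, filled where called, over the quartile range of all tested genes, -0.41 to 0.48. The interval of Igf2r, 1.60 to 2.25, and those of Igfbp2, Igfbp4 and Igfbp5 lay outside that range.

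Igf2r, the receptor that clears IGF2 and sorts lysosomal enzymes, had the largest log2 fold change upward of the 8 tested genes. It lies on mouse chromosome 17, 12682406 to 12769664 on the minus strand of GRCm38, a gene of 87.3 kb with 49 separate exonic stretches. Senescent replicates 1, 2 and 3 held 109, 128 and 139 CPM of it, while the healthy replicates held 28.5, 35.1 and 35.2 CPM. Every senescent library was thus above every healthy one, and the lowest senescent value was more than the sum of any pair of healthy values. The log2 fold change was 1.93 ± 0.14, or 3.81-fold with a 95% interval of 3.04 to 4.77 (edgeR adjusted p = 3.1e-05). By p the gene stood at place 225 of the 12949 tested. It was called in all 14 other fits, with a log2 fold change between 1.83 and 2.05 when single libraries were left out and of 2.24 with total library size.

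In the mouse Igf2r is imprinted and read from the maternal copy, and the noncoding RNA Airn is read across it on the other strand of the paternal copy. The annotation gives the exons of Airn no base in common with those of Igf2r. Airn had 10, 3 and 0 counts in senescent and 3, 0 and 5 counts in healthy libraries, too few to be tested in the main fit. Of the 6 listed neighbouring genes, 4 were tested, 2 fell and 0 rose, beside 20.7% and 20.4% of all genes. The fallen were 1 with total library size, by limma-voom and with any library but healthy replicate 1 left out. Over all genes 1285 of 12949 fell with total library size. With no filter all 6 were tested and 1 rose, beside 2735 higher of 18391 genes. The organic cation transporter gene Slc22a3, imprinted in the placenta, had 1.69 ± 0.251 CPM in senescent and 2.92 ± 0.727 CPM in healthy libraries (log2 fold change -0.78 ± 0.26, edgeR adjusted p = 0.044). That call was lost with total library size and by limma-voom, and also with any senescent replicate or healthy replicate 2 or 3 left out (adjusted p up to 0.16). The plasminogen gene Plg fell too and is given below with the proteases.

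The window from 250 bases before to 50 after the start of Igf2r in RefSeq (chr17:12769657-12769956, minus strand, GRCm38.p6) is shown because this receptor rose most clearly and because it holds the same palindrome at 2 places. Capitals mark TCACGTGA, the core of the CLEAR element known from promoters of lysosomal genes, which reads alike on both strands and contains the E-box CACGTG.
Igf2r: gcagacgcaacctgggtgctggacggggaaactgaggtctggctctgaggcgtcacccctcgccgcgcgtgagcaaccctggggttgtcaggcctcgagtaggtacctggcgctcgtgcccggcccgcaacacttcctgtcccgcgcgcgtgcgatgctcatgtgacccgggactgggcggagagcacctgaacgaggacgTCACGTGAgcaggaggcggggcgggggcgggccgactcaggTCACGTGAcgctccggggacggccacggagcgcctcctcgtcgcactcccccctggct
The matches began 49 and 8 bases before the start. Of 32851 windows of the same length, 0.974% held the palindrome and 0.0578% held it at least 2 times. No other window of the 9 genes held it. It was chosen after the sequence had been seen, and a match is not a measured binding site.

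Genes that work with IGF2R in the mannose 6-phosphate route mostly did not pass. Of the 12 on that list, all tested, 1 rose, 2 fell and 9 did not pass, with a median log2 fold change of 0.11 against 0.01 for all genes. That is 8.33% higher and 16.7% lower, beside 20.4% and 20.7% of all genes. The riser was Gga2, an adaptor that loads these receptors into carriers at the Golgi, with 56.7 ± 3.75 CPM in senescent and 25.3 ± 7.65 CPM in healthy libraries (log2 fold change 1.16 ± 0.20, edgeR adjusted p = 0.0024). Nagpa, whose enzyme uncovers the mannose 6-phosphate tag, fell to 12.1 ± 0.470 CPM in senescent hepatocytes, against 17.9 ± 0.957 CPM in healthy ones (edgeR adjusted p = 0.0049). M6pr, the cation-dependent receptor for the same tag, had 80.1, 82.8 and 83.6 CPM in senescent and 94.2, 102 and 106 CPM in healthy libraries. The groups of M6pr were narrow and did not overlap, and the log2 fold change was -0.29 ± 0.10 (edgeR adjusted p = 0.049). Its direction turned with total library size (log2 fold change 0.02, adjusted p = 0.90), and the call of Nagpa was lost there as well (adjusted p = 0.12). Under that scaling 8 genes of this list rose and 0 fell, beside 4861 higher and 1285 lower of all 12949 genes. The call of M6pr was also lost with any library but healthy replicate 1 left out (adjusted p up to 0.19). Per length, Igf2r stood at 0.610 to 0.746 of the TPM (length-corrected transcript share) of M6pr in senescent and at 0.135 to 0.154 in healthy libraries, a ratio within each library that no scaling moves. Ctsd, which encodes the lysosomal protease cathepsin D and stands on the list of proteases below, rose to 537 ± 11.9 CPM in senescent hepatocytes, against 215 ± 36.2 CPM in healthy ones (log2 fold change 1.32 ± 0.15, edgeR adjusted p = 3.0e-04).

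Igf1r, the signalling receptor, was close to the limit of reading in both groups. It had 24, 17 and 21 counts in senescent and 9, 10 and 6 counts in healthy libraries, over exons of 16.79 kb on chromosome 7 (67952827 to 68233668, plus strand). These counts came to 0.669, 0.495 and 0.608 CPM in senescent and 0.303, 0.389 and 0.212 CPM in healthy libraries. All senescent values were above all healthy ones, with a log2 fold change of 0.97 ± 0.38 and a 95% interval of 0.11 to 1.84, but the gene was not called (edgeR adjusted p = 0.071). With total library size it was called, with a log2 fold change of 1.28 (adjusted p = 0.025). Per length it stood at 0.0754 to 0.106 TPM in senescent and 0.0261 to 0.0469 TPM in healthy hepatocytes, the lowest mean of the 9 genes in each group. Within a library the TPM of Igf2r was 294 to 466 times that of Igf1r in senescent and 163 to 299.8 times in healthy hepatocytes. Insr, the insulin receptor gene, had 126 to 181 times the TPM of Igf1r in senescent and 276 to 609.7 times in healthy libraries. Macrophages and stellate cells also carry IGF1R, and their summed markers are given above: those of stellate cells did not overlap between the groups, with higher sums in senescent libraries, and those of macrophages overlapped. The part of such cells in these few counts was not tested.

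The genes just below the IGF and insulin receptors moved in both directions. Of 24 on that list 21 were tested, 9 rose, 4 fell and 8 did not pass, with a median log2 fold change of 0.22. That is 42.9% higher and 19.0% lower, beside 20.4% and 20.7% of all genes. With total library size 12 rose and 2 fell, beside 4861 higher and 1285 lower of all 12949 genes. Grb10, an imprinted adaptor that binds both receptors and dampens their signal, had 9.54, 12.4 and 14.6 CPM in senescent and 1.28, 0.856 and 0.566 CPM in healthy libraries. Its groups lay far apart, with a log2 fold change of 3.74 ± 0.30 (edgeR adjusted p = 4.7e-05), larger than that of any of the 9 genes. Pik3cb, a catalytic subunit gene of phosphoinositide 3-kinase, rose to 30.5 ± 1.91 CPM in senescent hepatocytes, against 13.8 ± 1.22 CPM in healthy ones (edgeR adjusted p = 1.8e-04). Socs2, a brake on growth hormone signalling, fell to 12.6, 10.3 and 9.92 CPM in senescent libraries, against 26.9, 100.4 and 53.1 CPM in healthy ones (log2 fold change -2.45 ± 0.42, edgeR adjusted p = 0.0024). Irs2, a docking protein of the insulin receptor in liver, fell to 11.6 ± 1.59 CPM, against 33.6 ± 12.7 CPM (log2 fold change -1.52 ± 0.26, edgeR adjusted p = 0.0026). Irs1, another docking protein gene, rose to 32.0 ± 7.96 CPM in senescent hepatocytes, against 17.4 ± 2.68 CPM in healthy ones (log2 fold change 0.88 ± 0.20, edgeR adjusted p = 0.0081). Insr itself had 69.9 ± 6.42 CPM in senescent and 93.6 ± 10.6 CPM in healthy libraries (log2 fold change -0.42 ± 0.13, edgeR adjusted p = 0.028). Its call was lost with total library size, where its log2 fold change was -0.11, and with any senescent replicate or healthy replicate 3 left out (adjusted p up to 0.16).

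**Figure D3:**
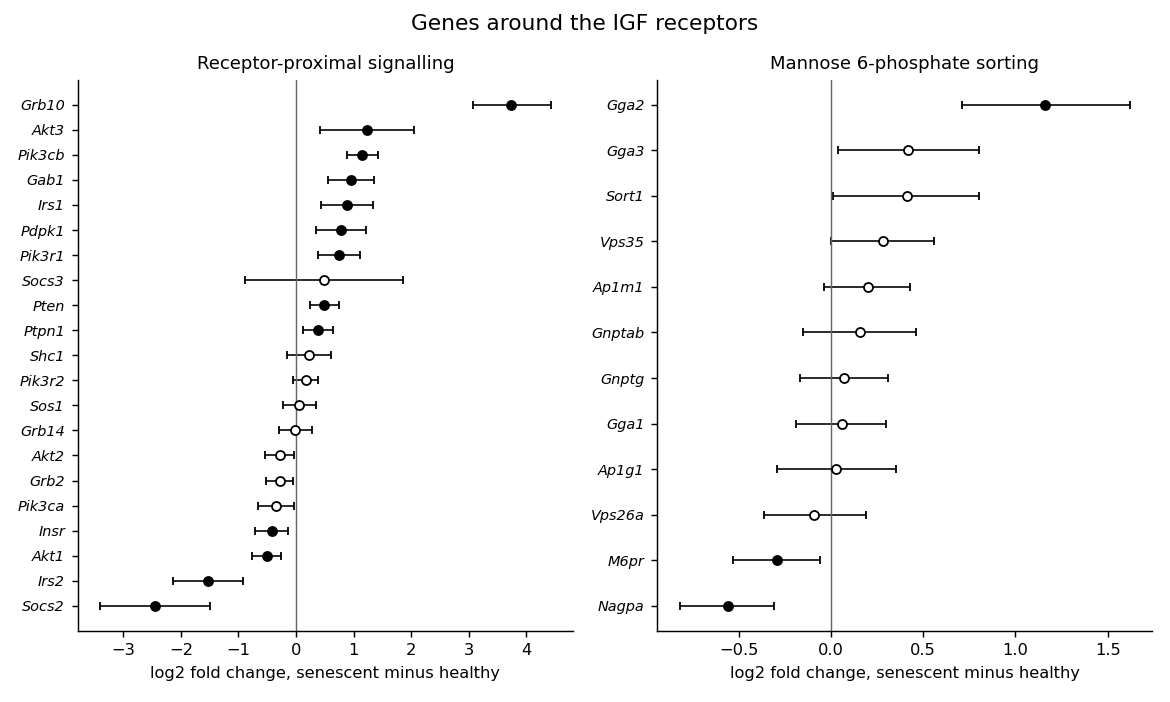
Log2 fold changes (horizontal axes, senescent minus healthy, with 95% intervals) of the tested genes of receptor-proximal signalling and of mannose 6-phosphate sorting, filled where called. Grb10 stood highest at 3.74 and Socs2 lowest at -2.45, and in the sorting list Gga2 was the 1 called riser. With total library size M6pr turned to 0.02.

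Among the binding proteins, 3 made up nearly all of the transcripts. Per length, Igfbp1, Igfbp2 and Igfbp4 together held 97.2% to 98.1% of the binding protein TPM in senescent and 97.8% to 98.9% in healthy libraries. TPM was computed from the counts and the summed exons of the annotation, so a gene read mainly from a short isoform is understated. It carries no TMM correction, so TPM serves to compare genes within a library. Changes between the groups are read from CPM. In senescent hepatocytes the order was Igfbp1 at 502 ± 109.6 TPM, Igfbp4 at 429 ± 81.8 and Igfbp2 at 276 ± 33.6. In healthy hepatocytes it was Igfbp4 at 690.4 ± 79.4 TPM, Igfbp2 at 555 ± 69.9 and Igfbp1 at 253 ± 109.6. The ranges over libraries overlapped for Igfbp1 and Igfbp4 in senescent and for Igfbp4 and Igfbp2 in healthy hepatocytes, so that these neighbours in the order are not separated by their spread. Below them Igfbp7 had 28.5 ± 5.61 TPM in senescent and 19.9 ± 3.05 TPM in healthy libraries, and the means of Igfbp3, Igfbp5 and Igfbp6 were at most 0.566 TPM in senescent and 3.64 TPM in healthy libraries.

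The shares of Igfbp1, Igfbp2 and Igfbp7 in the pool differed between the groups, while which gene led varied within each group. Igfbp1 held 44.4%, 30.4% and 46.9% of the binding protein TPM in senescent replicates 1, 2 and 3, against 9.01%, 19.1% and 21.0% in the healthy ones. Igfbp2 held 21.2%, 25.5% and 20.4% in the senescent and 34.3%, 40.1% and 34.9% in the healthy libraries. Igfbp7 held 2.33%, 1.83% and 2.76% in the senescent and 1.52%, 1.39% and 1.03% in the healthy libraries. The shares of none of these genes overlapped between the groups. The 53.9% of all genes without overlap is for CPM, an unlike measure. A share also moves when other genes of the pool move, and the CPM of Igfbp1 and that of Igfbp7 overlapped between the groups. Igfbp4 held 31.9%, 42.2% and 29.8% in senescent and 54.5%, 39.4% and 43.0% in healthy libraries, which overlapped. Shares are taken within a library and so do not move with the scaling, and with so few libraries they are given as a description, with no test.

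**Figure D4:**
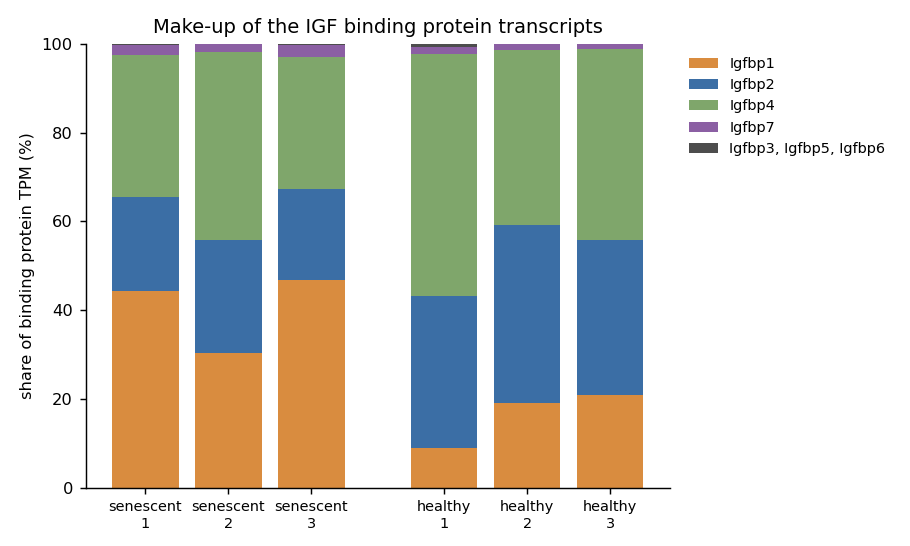
Share of each binding protein in the summed TPM of Igfbp1 to Igfbp7 (vertical axis, %) in each library, senescent at the left. The Igfbp1 band spans 30.4% to 46.9% in senescent against 9.01% to 21.0% in healthy libraries, and the Igfbp2 band 20.4% to 25.5% in senescent, against 34.3% to 40.1% in healthy ones.

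Igfbp2, a carrier of both IGFs that the adult liver secretes, fell. It had 183, 227 and 170.3 CPM in senescent and 461, 572 and 493 CPM in healthy libraries. The highest senescent value was below 0.5 of the lowest healthy one. Its log2 fold change was -1.39 ± 0.16, a level 2.63-fold lower in senescent hepatocytes with a 95% interval of 2.05 to 3.36 (edgeR adjusted p = 3.0e-04). Igfbp4, which holds IGFs until the protease PAPP-A cuts it, had 661, 900.0 and 595 CPM in senescent and 1753, 1346 and 1451 CPM in healthy libraries. The groups did not overlap here either, and the log2 fold change was -1.08 ± 0.19, or 2.11-fold lower with an interval of 1.55 to 2.87 (edgeR adjusted p = 0.0032). Both falls were called in all 14 other fits, and with total library size they were -1.09 and -0.77 on the log2 scale. In the same libraries 7 of the 10 hepatocyte markers fell and 0 rose, beside 20.7% and 20.4% of all genes, with a median log2 fold change of -0.87. Without senescent replicate 3 the fallen markers were 4, beside 1489 of all 13105 genes tested there. With total library size 5 fell and 1 rose, beside 1285 lower and 4861 higher of all 12949 genes. The part of that shift in the falls of Igfbp2 and Igfbp4 was not tested.

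The promoter windows of these 2 genes are shown because they fell together from the highest levels of the family in healthy cells. Igfbp2 lies at chromosome 1, 72824503 to 72852474 on the plus strand, and its window is chr1:72824230-72824529. Igfbp4 lies at chromosome 11, 99041244 to 99054392 on the plus strand, and its window is chr11:99040994-99041293 (RefSeq, GRCm38.p6, both on the plus strand). Capitals mark the GC box GGGCGG and the TATA box TATAAA, each searched on both strands.
Igfbp2: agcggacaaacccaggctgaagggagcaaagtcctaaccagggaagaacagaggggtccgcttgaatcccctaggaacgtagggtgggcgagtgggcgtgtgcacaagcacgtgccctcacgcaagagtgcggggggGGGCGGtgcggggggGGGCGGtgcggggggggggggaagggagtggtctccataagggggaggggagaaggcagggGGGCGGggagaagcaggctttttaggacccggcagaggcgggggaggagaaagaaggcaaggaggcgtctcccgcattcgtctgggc
Igfbp4: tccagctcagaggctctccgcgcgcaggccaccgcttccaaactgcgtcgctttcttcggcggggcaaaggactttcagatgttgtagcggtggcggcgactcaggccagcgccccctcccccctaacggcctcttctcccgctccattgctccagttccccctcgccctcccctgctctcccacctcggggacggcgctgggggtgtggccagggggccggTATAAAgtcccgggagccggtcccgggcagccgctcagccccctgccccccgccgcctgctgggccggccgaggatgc
The window of Igfbp2 held 3 GC boxes and no TATA box, and that of Igfbp4 held 1 TATA box, 28 bases before the start, and no GC box. Of all windows 35.7% held a GC box and 13.6% a TATA box. Neither the p53 half-site, found in 8.36% of all windows, nor the FOXO motif GTAAACA, found in 3.65%, was matched in any window of the 9 genes, which says only that these letters are not there. Of the 2 windows listed for Igfbp2 only 1 was searched. The RefSeq starts used for Igf1r and Igfbp6 lay 570 and 176 bases from those of GENCODE.

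Igfbp1, the hepatocyte protein that insulin represses, did not pass. It had 317, 224 and 323 CPM in senescent and 100, 225 and 245 CPM in healthy libraries. Senescent replicate 2 lay among the healthy values, and healthy replicate 1 stood below all others. The log2 fold change was 0.60 ± 0.31 with a 95% interval of -0.11 to 1.31 (edgeR adjusted p = 0.15), so that a rise of 2.49-fold and no change both lie within it. Without healthy replicate 1 the log2 fold change was 0.29, and with total library size it was 0.92 and the gene was called (adjusted p = 0.043). The gene lies at chromosome 11, 7197782 to 7202546, on the plus strand. Its window (chr11:7197537-7197836, plus strand, RefSeq, GRCm38.p6) is shown because it holds the insulin response element through which FOXO factors are known to drive this gene, with the half-site CAAAACA in capitals.
Igfbp1: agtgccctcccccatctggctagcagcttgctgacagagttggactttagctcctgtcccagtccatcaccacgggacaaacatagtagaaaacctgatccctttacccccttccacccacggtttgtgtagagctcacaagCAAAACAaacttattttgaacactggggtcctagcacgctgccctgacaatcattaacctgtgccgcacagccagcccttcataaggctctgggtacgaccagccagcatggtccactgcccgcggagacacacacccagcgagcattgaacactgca
The half-site began 108 bases before the start. It was found in 6.28% of all windows and in no other window of the 9 genes.

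Other liver genes known to answer to insulin and FOXO mostly fell or did not pass. Of 13 on that list, all tested, 2 rose, 7 fell and 4 did not pass, with a median log2 fold change of -0.42. That is 15.4% higher and 53.8% lower, beside 20.4% and 20.7% of all genes. Without senescent replicate 3 the fallen were 4, beside 1489 of all 13105 genes tested there. With total library size 5 rose and 5 fell, beside 4861 higher and 1285 lower of all 12949 genes. G6pc, which like Igfbp1 is repressed by insulin, fell to 90.6 ± 26.8 CPM in senescent hepatocytes, against 454 ± 44.0 CPM in healthy ones (log2 fold change -2.32 ± 0.23, edgeR adjusted p = 1.6e-04). Among the FOXO factors themselves, Foxo4 fell to 18.7 ± 0.399 CPM in senescent hepatocytes, against 35.9 ± 3.63 CPM in healthy ones (edgeR adjusted p = 4.0e-04). Foxo3 rose to 62.7 ± 6.24 CPM in senescent hepatocytes, against 39.7 ± 8.23 CPM in healthy ones (edgeR adjusted p = 0.014). Trib1, which encodes a pseudokinase of liver lipid control, rose to 90.2 ± 17.7 CPM, against 54.5 ± 16.2 CPM (edgeR adjusted p = 0.038), a call lost when replicate 1 or 2 of either group was left out (adjusted p up to 0.10).

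The other binding protein genes were read at lower levels, Igfbp7 at 367 to 521 counts per senescent library, against 270 to 397 per healthy one. The rest were mostly far lower. IGFBP7 binds IGFs weakly and is known from blood vessels. It had 13.2, 10.7 and 15.1 CPM in senescent and 13.4, 13.0 and 9.54 CPM in healthy libraries, with overlapping groups. Its log2 fold change was 0.12 ± 0.18 (edgeR adjusted p = 0.62), and the 95% interval of -0.29 to 0.53 leaves out a change of 2-fold either way. Without healthy replicate 3 the value was -0.02. The annotation gives 7.03% of its exonic bases to Polr2b as well, on the other strand, and no source used here states how strand was treated in counting. Polr2b had 37.7 ± 1.54 CPM in senescent and 36.3 ± 4.23 CPM in healthy libraries. Of 14 markers of the sinusoidal endothelium 2 rose and 0 fell, beside 20.4% and 20.7% of all genes, and they summed to 181 to 234 CPM in senescent and 151 to 194 CPM in healthy libraries. Without replicate 1 or 3 of either group 1 marker rose, and over all genes 1836 to 2691 did. Senescent replicate 3 was highest in Igfbp7 and in that sum, and healthy replicate 3 was lowest in both. The same held for the marker sums of macrophages, 463 and 92.8 CPM, and of stellate cells, 59.2 and 14.4 CPM. The pattern is thus not particular to the endothelium.

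Igfbp5, a binding protein held in the extracellular matrix, was called lower, but 1 healthy library set the size of the fall. It had 80, 19 and 36 counts in senescent and 809, 90 and 73 counts in healthy libraries, or 2.23, 0.554 and 1.04 CPM against 27.2, 3.50 and 2.58 CPM. Every healthy library was above every senescent one, and healthy replicate 1 stood far above the other healthy ones. The log2 fold change was -3.12 ± 0.94 with a 95% interval of -5.26 to -0.98 (edgeR adjusted p = 0.028). Without healthy replicate 1 it was -1.25 ± 0.51 and not called (adjusted p = 0.091). The call was also lost without senescent replicate 2 (adjusted p = 0.080) or 3 (adjusted p = 0.10) and by limma-voom (log2 fold change -2.54, adjusted p = 0.10). The summed stellate cell markers were 21.8, 26.3 and 14.4 CPM in healthy replicates 1, 2 and 3. In healthy replicate 1 the summed mesothelial markers, 7 in number, were 0.269 CPM, a handful of counts. Of the stellate cell markers 13 were tested, and 6 rose and 0 fell, beside 20.4% and 20.7% of all genes. Without senescent replicate 3 the risen were 2, beside 1836 of all 13105 genes tested there. Single markers of that list went both ways in healthy replicate 1. Among the healthy libraries Ngfr peaked there with 14 counts against 2 and 1, and Des with 17 against 9 and 1. Colec11, with 79 against 40 and 17, and Ecm1, with 266 against 210 and 106, did so too. The lowest healthy counts stood there for Col1a1, 3 against 32 and 31, and Lrat, 13 against 46 and 24. The same held for Col3a1, 22 against 51 and 42, and Col1a2, 12 against 31 and 30. The sum of 10 cholangiocyte markers, 24.1 CPM, was the highest of the healthy libraries in healthy replicate 1. The part of such cells in the Igfbp5 value was not tested.

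Igfbp3 encodes the main IGF1 carrier of the blood, which in the rat liver is made by nonparenchymal cells and not by hepatocytes. It had 13, 16 and 20 counts in senescent and 17, 8 and 9 counts in healthy libraries, which overlapped. Its log2 fold change was 0.21 ± 0.41 (edgeR adjusted p = 0.70), and the 95% interval of -0.71 to 1.14 shows how little these counts can tell. Igfbp6, whose protein prefers IGF2, had 12, 1 and 0 counts in senescent and 0, 2 and 1 counts in healthy libraries and was not tested. Nearly all of its counts came from senescent replicate 1. A count of 0 allows up to 3 counts, which is 0.0868 CPM in senescent replicate 3 and 0.101 CPM in healthy replicate 1, and covers counting error only.

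**Figure D5:**
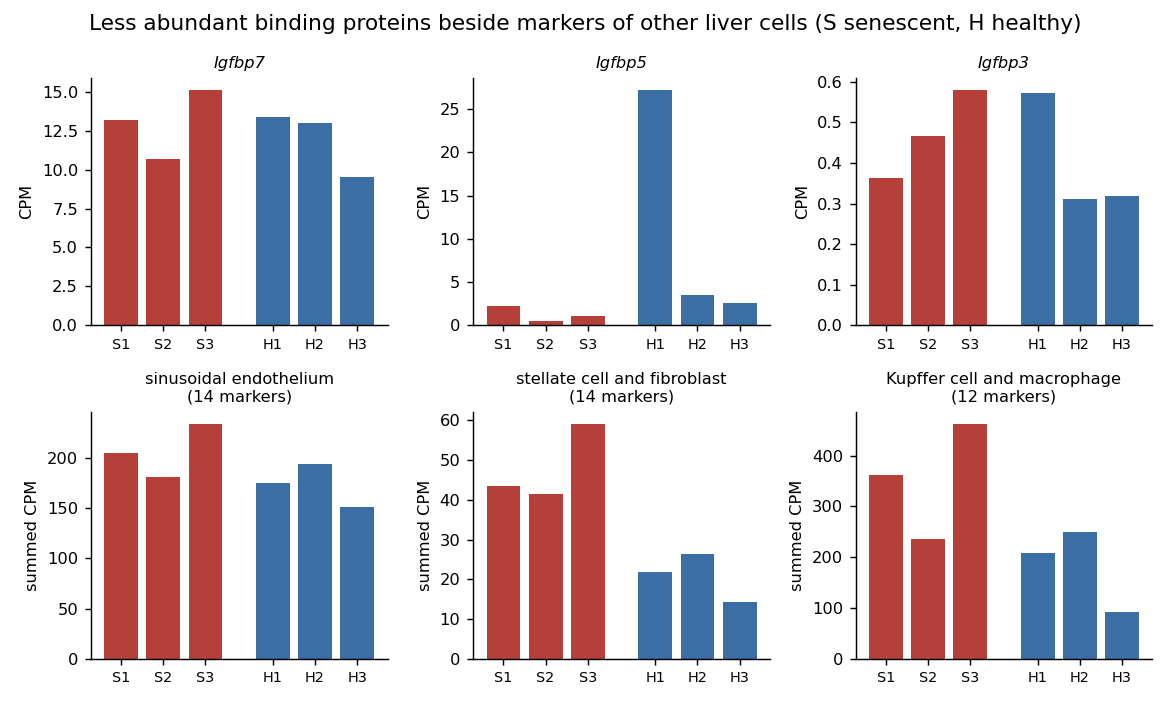
CPM of Igfbp7, Igfbp5 and Igfbp3 (top row) and the summed CPM of markers of sinusoidal endothelium, stellate cells and macrophages (bottom row) in senescent (S1 to S3, left) and healthy (H1 to H3, right) libraries. Igfbp5 peaks in H1 at 27.2 CPM, while among the healthy libraries the 3 marker sums shown were highest in H2. The part of other cells in the Igfbp5 value was not tested.

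The binding protein genes include 2 tail-to-tail pairs. Igfbp1 and Igfbp3 (chromosome 11, 7206086 to 7213923, minus strand) are 3.5 kb apart, and Igfbp2 and Igfbp5 (chromosome 1, 72857932 to 72874884, minus strand) are 5.5 kb apart. Within each pair the hepatocyte protein was read far above its neighbour in every library. In senescent libraries Igfbp1 had 376 to 574 TPM and Igfbp3 0.309 to 0.501 TPM, and in healthy ones 128 to 333 and 0.201 to 0.357 TPM. For the other pair Igfbp2 had 249.8 to 314 TPM and Igfbp5 0.236 to 0.992 TPM in senescent libraries, and 487 to 627 and 0.889 to 8.85 TPM in healthy ones.

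The ligands and the proteases that free them were read beside the binding proteins. Igf1 had 496, 474 and 441 CPM in senescent and 623, 522 and 543 CPM in healthy libraries and was not called (log2 fold change -0.26 ± 0.13, edgeR adjusted p = 0.14), with a sign that turned to 0.05 under total library size. Igfals, which encodes the acid-labile subunit that joins IGF1 and IGFBP3 into the long-lived complex of the blood, fell to 66.6 ± 23.4 CPM in senescent hepatocytes, against 209 ± 55.8 CPM in healthy ones (log2 fold change -1.65 ± 0.28, edgeR adjusted p = 0.0023). Igf2 had 1 count in all 6 libraries together. Of 16 genes of binding protein proteases and their inhibitors 7 were tested, 3 rose and 2 fell, which is 42.9% and 28.6% beside 20.4% and 20.7% of all genes, and 8 had under 10 counts in every library. Pappa, the gene of the protease that cuts IGFBP4, had 1 count in the senescent and 1 in the healthy libraries. Mmp14, a membrane metalloprotease, rose to 115 ± 4.58 CPM in senescent hepatocytes, against 40.8 ± 3.69 CPM in healthy ones (log2 fold change 1.49 ± 0.11, edgeR adjusted p = 3.7e-05). Plg fell to 1975 ± 237 CPM, against 3825 ± 601 CPM (edgeR adjusted p = 0.0040), and the prothrombin gene F2 to 1611 ± 133 CPM, against 2545 ± 163 CPM (edgeR adjusted p = 0.0078), a call lost with total library size (adjusted p = 0.058). Both are plasma proteins of the liver.

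The genes most like the clearest riser and the clearest faller were sought among 7234 genes of at least 10 CPM, by Pearson correlation of log2 CPM over the 6 libraries. Those closest to Igf2r were Stk25 (r = 0.9998), Prrc2b (r = 0.9995) and Txnl1 (r = 0.9989). Those closest to Igfbp2 were Gckr (r = 0.9993), the gene of the liver regulator of glucokinase, Hgfac (r = 0.9985), whose protease activates hepatocyte growth factor, and Snrpd3 (r = 0.9978). The libraries fall into 2 groups, so any gene that differs between them correlates highly: 755 genes passed r = 0.95 with Igf2r and 568 with Igfbp2.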

How the data were processed

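Polyadenylated RNA was sequenced from 6 libraries of isolated hepatocytes, grouped by the titles in the labels. The authors deposited a single table of raw read counts per gene. The submitters' processing notes name build GRCm38 and, with no roles, STAR 2.7.1a, featureCounts, cutadapt 1.16, DESeq2 1.34.0, FastQC and MultiQC 1.3. The library kit marks strand, per the labels; the annotation release and the strand setting of the counting are stated in no source used here. Overlapping genes are therefore uncertain. The column taken as healthy replicate 2 differs from its code in the labels by 1 letter. Every row names a gene, and 99.7% of its IDs matched GENCODE M21, the source of coordinates and exonic lengths.

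Counts were tested with edgeR 4.0.16 (R 4.3.3; quasi-likelihood F test, two-sided, filterByExpr with a minimum count of 10 and total of 15, TMM, no covariate), adjusted by Benjamini-Hochberg over all tested genes. The SE is the log2 fold change over the square root of F. TPM was computed from counts and exonic length, with no TMM correction. The test was checked on simulated data. Every pair of libraries differed beyond sampling noise.

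The genes and lists were chosen with earlier results of these data known, as were the motifs. From each list the text names up to 2 risen and 2 fallen genes, those of smallest p, and in a list with no call up to 2 genes of highest level. Igf1, Igf2, Insr, Irs1, Airn, Pappa, Mmp9, Pdk4, Polr2b, Mas1 and single cell type markers were named outside that rule, after their values were seen, as were genes with 0 counts. Alternatives were DESeq2 1.42.0, limma-voom (limma 3.58.1), other scalings and filters, a fit with the replicate number as a block, an adjusted p under 0.01, removal of the 50 most abundant genes and of each library. Running them on the list counts was decided after seeing the data. No protein sequence was used here, and 1 neighbouring gene is not reported here.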

Additional observations from a re-analysis of the deposited data

How the results depend on the processing

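Igf2r, Igfbp2 and Igfbp4 kept their direction and call in every alternative run. Total library size raised the genes called higher among all genes to 4861, lowered those called lower to 1285, and made 3 of the 9 genes called higher, with log2 fold changes of 0.92 for Igfbp1 and 1.28 for Igf1r. With an adjusted p under 0.01, 1570 genes were higher and 1498 lower, and Igfbp5 (log2 fold change -3.12) was not called, nor was it by limma-voom (-2.54). Leaving out single libraries gave 1836 to 2691 higher and 1489 to 2789 lower genes, the fewest without senescent replicate 3, and 2 to 3 of the 9 genes lower. Igfbp5 then ranged from -3.76 to -1.25 and Igfbp7 from -0.02 to 0.28. Why these values moved was not tested, beyond the smaller number of libraries. Igfbp6 gave a fit only in DESeq2 (1.72, adjusted p = 0.49) and with no filter (1.66, adjusted p = 0.41). Igf1r and Igfbp3 could not be tested with a filter at a mean of 1 CPM. Depth limits Igf1r, Igfbp3 and Igfbp6 most.

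The titles give both groups replicate numbers 1 to 3. Same-numbered libraries showed no sign of deviating together (correlations of 0.228, -0.174 and -0.043, beside -0.329 to 0.38 for the other pairs). With 3 libraries per group these correlations cannot decide whether the numbers pair the libraries. With the replicate number as a block 2576 genes were higher and 2625 lower, Igf2r had a log2 fold change of 1.93 and Igfbp5 of -2.64, and no call among the 9 genes changed. In the lists, the block ended the calls of M6pr, Slc22a3, Mmp9 and Pdk4 and of the markers Alb, Lum and Stab1.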

Other observations

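Of 13 relatives of the binding proteins by their amino-terminal domain 6 were tested, 2 rose and 1 fell, and Igfbpl1, Ccn3 and Ccn5 had 0 counts in all 6 libraries. Ccn1, a matrix protein induced by growth factors and stretch, had 76.0, 60.9 and 57.2 CPM in senescent and 14.3, 16.7 and 19.9 CPM in healthy libraries, with no overlap and a log2 fold change of 1.93 ± 0.17 (edgeR adjusted p = 7.0e-05). Crim1, a membrane protein gene of the BMP pathway, rose to 22.9 ± 3.30 CPM in senescent hepatocytes, against 5.99 ± 1.32 CPM in healthy ones (edgeR adjusted p = 1.6e-04). Htra4, a serine protease gene, had 10, 12 and 7 counts in senescent and 67, 33 and 53 counts in healthy libraries (log2 fold change -2.69 ± 0.37, edgeR adjusted p = 8.3e-04). The percent of all genes called higher was 20.4 and lower 20.7, and these 3 calls held in every fit in which the genes were tested.

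The IGF2 mRNA-binding proteins share only a name with the family. Igf2bp2 had 1.97 ± 0.0516 CPM in senescent and 1.81 ± 0.267 CPM in healthy libraries and was not called (log2 fold change 0.13 ± 0.23, edgeR adjusted p = 0.68), and Igf2bp3 had 1 count in all. Mas1, the next protein-coding gene after Igf2r on its chromosome at 71.4 kb, had 0.219 ± 0.0963 CPM in senescent and 0.0247 ± 0.0215 CPM in healthy libraries and was not tested in the main fit. With no filter all 6 listed neighbours of Igf2r were tested, Mas1 among them, and 1 rose.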
